A study of Mus musculus with 9 samples.

Results

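Complex I (NADH:ubiquinone oxidoreductase) is the entry point of electrons from NADH into the mitochondrial respiratory chain. It has a matrix arm, where NADH is oxidised and iron-sulphur clusters pass electrons to ubiquinone, and a membrane arm that pumps protons. Its catalytic core is conserved from bacteria and is made partly from mitochondrial DNA, the many supernumerary subunits around the core are nuclear, and assembly factors join the modules without staying in the finished enzyme. Dopaminergic neurons of the midbrain are known to be sensitive to complex I inhibitors. The genes described here are the 46 protein-coding mouse genes whose symbol starts with Nduf, out of 47729 gene identifiers in each count file and 17671 genes kept for testing. They were taken by symbol from the annotation, and all 46 passed the filter on low counts. They comprise 11 Ndufs and Ndufv genes, 27 Ndufa, Ndufb and Ndufc genes, and 8 Ndufaf genes, which encode assembly factors. By biochemical role, 7 of the Ndufs and Ndufv genes encode core subunits and 29 genes encode supernumerary subunits, while Ndufa4 and its homologue Ndufa4l2 keep the family name although Ndufa4 is now assigned to cytochrome c oxidase.

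RNA was sequenced from dissected midbrain of C57/Bl6 mice at 180 days, with 3 libraries for each of 3 genotypes and a pool of 3 mice in each library, so that p-values measure the spread between pools. All mice, controls included, carried Pitx3-Cre/+ and the Rosa-lox-stop-lox-Yfp reporter, and they had no floxed Dot1l allele (Dot1l(+/+), the controls), 1 (Dot1l(fl/+)) or 2 (Dot1l(fl/fl)). The series description speaks of sorted cells at E15.75, whereas every library label gives P180 and dissected tissue, and the labels were followed. Dot1l encodes the methyltransferase of lysine 79 of histone H3. Cre is made from the Pitx3 locus, which in the midbrain is active in dopamine neurons, and a dissected block also holds cells without Cre. Library totals were between 16422135 and 28403218 counts.

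Dot1l stood at 85.2, 80.2 and 85.1 CPM in the controls, at 84.2, 60.6 and 75.6 in the Dot1l(fl/+) libraries and at 82.1, 73.9 and 82.8 in those of Dot1l(fl/fl), so the 3 genotypes overlapped. Its log2 fold change against the controls was -0.19 ± 0.09 (SE) in Dot1l(fl/+) and -0.07 ± 0.09 for Dot1l(fl/fl), and neither passed an unadjusted p of 0.05 (edgeR quasi-likelihood test, adjusted p = 0.620 and 0.999). With the offset for transcript length and GC content described below, Dot1l passed it in Dot1l(fl/+), at -0.17. Counts per whole gene do not read the loss of the floxed exon and include cells without Cre, so they do not check the deletion. The 12 dopamine neuron markers examined, such as Th and Slc6a3, were all detected and summed to 752 to 842 CPM (counts scaled to a common library size) in the controls, 608 to 756 in Dot1l(fl/+) and 594 to 623 for Dot1l(fl/fl). All 12 were below the controls in Dot1l(fl/fl), 10 of them at an unadjusted p under 0.05 (1.72% of all genes), and 11 of the 12 with 1 floxed allele, 4 of them at that threshold (4.09%). In such bulk samples fewer cells of a type and less RNA per cell cannot be told apart. Markers of other cells were abundant: in the controls 10 oligodendrocyte genes summed to 10550 to 11610 CPM, 9 astrocyte genes to 4454 to 4845, and 7 endothelial genes to 288 to 313, with 10700 to 12070, 4246 to 4809 and 292 to 296 in Dot1l(fl/+) and 10780 to 11290, 4525 to 4747 and 290.0 to 294 for Dot1l(fl/fl). The 8 microglial genes summed to 351 to 368 CPM in the controls, 352 to 420 with 1 floxed allele and 385 to 414 with 2. Pan-neuronal genes summed to 7402 to 7461 CPM in the controls, 6981 to 7303 in Dot1l(fl/+) and 7402 to 7794 for Dot1l(fl/fl). Choroid plexus genes (Ttr and 3 others) summed to 53.2 to 135 CPM in the controls, 95.5 to 551 in Dot1l(fl/+) and 26.6 to 35.4 for Dot1l(fl/fl), and 4 haemoglobin genes to 96.9 to 272, 105.0 to 166 and 146 to 211. At an unadjusted p under 0.05, 3 oligodendrocyte, 3 choroid plexus, 1 astrocyte and 1 microglial gene were higher in Dot1l(fl/+) (4.3%). In the same genotype 1 astrocyte, 1 pan-neuronal and 1 haemoglobin gene were lower (4.09% of all genes). For Dot1l(fl/fl), 2 microglial genes were higher (2.21%) and 2 choroid plexus genes lower (1.72%). Gm42418, a locus that overlaps ribosomal RNA sequence, stood at 391, 322 and 354 CPM in the controls, at 1032, 926 and 638 in the Dot1l(fl/+) libraries and at 264, 423 and 516 in those of Dot1l(fl/fl). Dot1l(fl/fl) against Dot1l(fl/+) had 6 dopamine neuron, 4 oligodendrocyte, 4 choroid plexus and 1 pan-neuronal marker lower at an unadjusted p under 0.05 (2.87%). Higher in that comparison were 1 pan-neuronal and 1 haemoglobin gene (3.6%). The part of these differences in the results below was not tested.

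The promoters of the 3 genes with the lowest p-values in Dot1l(fl/+) among those in the promoter table are shown with that of Ndufs8, a core subunit gene of the class with the smallest median change, so that a reader can compare their sequence. Each line holds the 250 bases before the RefSeq gene start in GRCm38.p6, written 5′ to 3′ on the strand of the gene, with CG dinucleotides in capitals.

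Ndufa6 (chr15:82354292-82354541, minus strand): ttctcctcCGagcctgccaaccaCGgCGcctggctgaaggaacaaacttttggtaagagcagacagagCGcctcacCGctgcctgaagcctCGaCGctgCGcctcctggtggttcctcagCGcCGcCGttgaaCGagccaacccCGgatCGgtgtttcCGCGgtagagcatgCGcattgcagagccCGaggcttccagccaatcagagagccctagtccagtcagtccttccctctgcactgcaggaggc
Ndufa3 (chr7:3617123-3617372, plus strand): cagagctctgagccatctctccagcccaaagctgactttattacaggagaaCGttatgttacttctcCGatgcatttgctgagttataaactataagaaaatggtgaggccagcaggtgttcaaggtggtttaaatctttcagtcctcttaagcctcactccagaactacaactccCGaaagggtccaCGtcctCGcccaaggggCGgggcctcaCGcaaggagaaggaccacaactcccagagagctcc
Ndufb5 (chr3:32736813-32737062, plus strand): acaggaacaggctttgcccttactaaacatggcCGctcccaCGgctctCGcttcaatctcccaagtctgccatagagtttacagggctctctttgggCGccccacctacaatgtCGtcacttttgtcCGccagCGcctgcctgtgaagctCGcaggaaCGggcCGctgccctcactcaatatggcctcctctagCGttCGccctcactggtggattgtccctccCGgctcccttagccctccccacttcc
Ndufs8 (chr19:3912775-3913024, minus strand): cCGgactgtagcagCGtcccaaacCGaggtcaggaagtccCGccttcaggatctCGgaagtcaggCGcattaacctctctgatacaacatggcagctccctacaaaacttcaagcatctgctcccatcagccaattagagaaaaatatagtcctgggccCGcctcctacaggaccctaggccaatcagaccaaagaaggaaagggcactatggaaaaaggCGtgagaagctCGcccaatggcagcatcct

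The Ndufa6 window held 18 CG dinucleotides, Ndufb5 13, Ndufs8 9 and Ndufa3 7. Of the 46 genes, 40 had a window in the table, with 42 windows in all, and Ndufa2, Ndufa4l2, Ndufaf6, Ndufb9 and Ndufs1 were among those with no entry. The 42 windows had a median of 17 CG dinucleotides and a range from 4 to 28, while the median over all 32851 windows of the table was 6. On both strands 4 motifs were searched: CGCANGCGC for nuclear respiratory factor 1, CCGGAAG for ETS factors such as GABP, AAGATGGCG for YY1 and TCAAGGTCA for oestrogen-related receptors. None of the 4 printed windows held any of them. The first was found in 10 of the 42 windows (23.8%), against 5.19% of all windows, and the second in 5 (11.9%), against 6.91%. Both motifs hold CG dinucleotides, which were more frequent in the 42 windows, and shares at equal CG content were not compared. The YY1 and receptor motifs were found in none of the 42 windows, and in 0.606% and 0.387% of all windows. The matches to the first motif nearest to the start of each gene are written below in the direction of the match, with the matching letters in capitals and up to 10 bases on either side, since more of these genes held it than any other motif searched.

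Ndufs5 (chr4:123718265-123718293, minus strand): ctgcttgctgCGCAGGCGCagacccgctg
Ndufs6 (chr13:73328483-73328508, plus strand): gtgccggCGCAGGCGCacagcagtcg
Ndufa5 (chr6:24527697-24527725, minus strand): gtgtgagctgCGCAGGCGCaaatctacct
Ndufa8 (chr2:36049339-36049357, minus strand): tcgctggagaCGCATGCGC
Ndufa11 (chr17:56717693-56717721, plus strand): ctgcactgcgCGCATGCGCgcacgccttg
Ndufa12 (chr10:94198905-94198933, minus strand): ggtcgttctaCGCAGGCGCagagctggag
Ndufb4 (chr16:37654371-37654399, minus strand): ctcatatccgCGCAGGCGCagatgtgcgc
Ndufb10 (chr17:24724431-24724459, minus strand): ctgcccactaCGCAGGCGCagctgtcacc
Ndufaf4 (chr4:24897961-24897989, plus strand): cagatgtctgCGCATGCGCctgtgcggaa

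The genes with a match came from each of the 3 classes. Ndufa5, Ndufa11 and Ndufb10 were higher in Dot1l(fl/+) at an unadjusted p under 0.05, and the others with a match did not pass. Among those others was Ndufb4, whose fold changes were below 0. A match in letters is a description of the window, and binding was not measured.

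To compare levels between genes, CPM was divided by the length of the principal transcript in kilobases (RPKM). In the controls the median over genes was 41.3 RPKM for Ndufs and Ndufv, 45.8 for Ndufa, Ndufb and Ndufc, and 12.3 for Ndufaf. Among the core subunit genes, Ndufv1, which encodes the subunit that binds NADH and flavin, stood at 85.7 ± 4.12 RPKM (SD, n = 3), Ndufs1 at 82.8 ± 4.20 and Ndufv2 at 78.9 ± 7.31. By this length the 3 lie close together, and their intervals of 1 SD overlap. Lower core genes were Ndufs8 at 55.98 ± 7.22, Ndufs7 at 41.3 ± 3.98 and Ndufs3 at 18.8 ± 0.618 RPKM. Among the accessory genes Ndufa4 stood highest at 158 ± 12.9 RPKM, followed by the membrane arm genes Ndufb9 at 114 ± 8.50 and Ndufb10 at 103 ± 8.03. The lowest values were those of Ndufa4l2, a homologue of Ndufa4 known to be induced by low oxygen, at 2.11 ± 0.480, and of Ndufs5, a subunit on the intermembrane side, at 4.33 ± 2.18 RPKM. The assembly factors ran from Ndufaf5, which hydroxylates an arginine of Ndufs7, at 25.5 ± 2.87 RPKM down to its partner Ndufaf8 at 6.21 ± 1.25 and Ndufaf6 at 5.56 ± 0.853. These levels depend on the transcript taken as the length: with all annotated exons merged, Ndufa4 came to 69.8, Ndufb9 to 77.5, Ndufaf5 to 16.7 and Ndufs3 to 9.02 RPKM, so that Ndufa4 no longer stood above Ndufb9. Ndufs1 then came to 27.2 RPKM, well below Ndufv1 at 54.1 and Ndufv2 at 62.4.

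**Figure D1:**
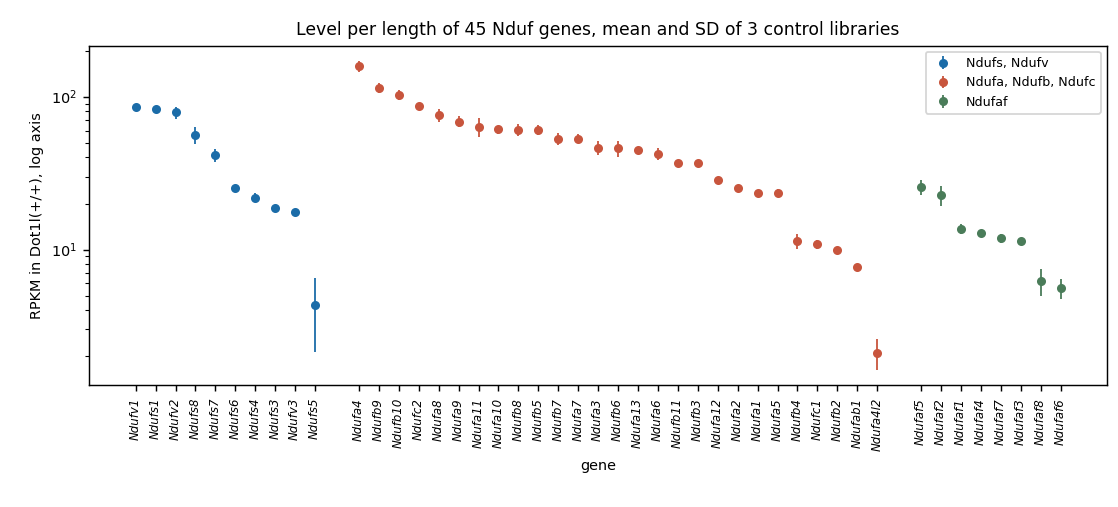
Level of 45 of the 46 Nduf genes in the 3 Dot1l(+/+) libraries, as RPKM on a log axis (points are means, bars are 1 SD), in descending order within the 3 classes. Ndufa4 is highest and Ndufa4l2 lowest, and most assembly factors lie below most subunits.

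Against the controls, 43 of the 46 genes had a positive log2 fold change in Dot1l(fl/+), and 21 were higher at an unadjusted p under 0.05, against 4.3% of all genes tested. None was lower at that threshold, against 4.09% of all genes. The median log2 fold change of the 46 was 0.17, while that of all genes tested was -0.00. No gene passed an adjusted p of 0.05 in edgeR, neither among the 46 nor among all genes (0%), and the lowest adjusted p of a member was 0.540, of Ndufa2. With DESeq2 on all 9 libraries the adjusted count was also 0, with DESeq2 on the 2 genotypes compared it was 3 (Ndufa1, Ndufa2 and Ndufa3, against 0.164% of all genes), and in edgeR without the filter on low counts it was 11, against 0.886%. In 16 genes all 3 Dot1l(fl/+) libraries lay above all 3 controls, against 6.84% of all genes, and in no gene did they all lie below, against 6.47%.

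In Dot1l(fl/fl) the changes were smaller. Positive log2 fold changes against the controls were found in 39 of the 46, and 6 genes (Ndufa1, Ndufa2, Ndufa3, Ndufa4, Ndufa6 and Ndufc1) were higher at an unadjusted p under 0.05, against 2.21% of all genes. None was lower, against 1.72%. The median was 0.08, and that of all genes 0.00. The lowest adjusted p of a member was 0.999 (edgeR). The adjusted count in edgeR was 0 (0% of all genes), as it was with DESeq2 on all 9 libraries and on the 2 genotypes, while edgeR without the filter called 1 of the 46, Ndufa3, against 0.417% of all genes. With the replicate number of the labels as a block, 10 members were higher at an unadjusted p under 0.05, against 2.46% of all genes. In 4 genes (Ndufa1, Ndufa2, Ndufa6 and Ndufc1) the 3 Dot1l(fl/fl) libraries lay above the 3 controls (5.03% of all genes), and in none below (5.25%). The 2 comparisons share the control libraries, so that their values are given side by side below and their likeness was not tested.

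**Figure D2:**
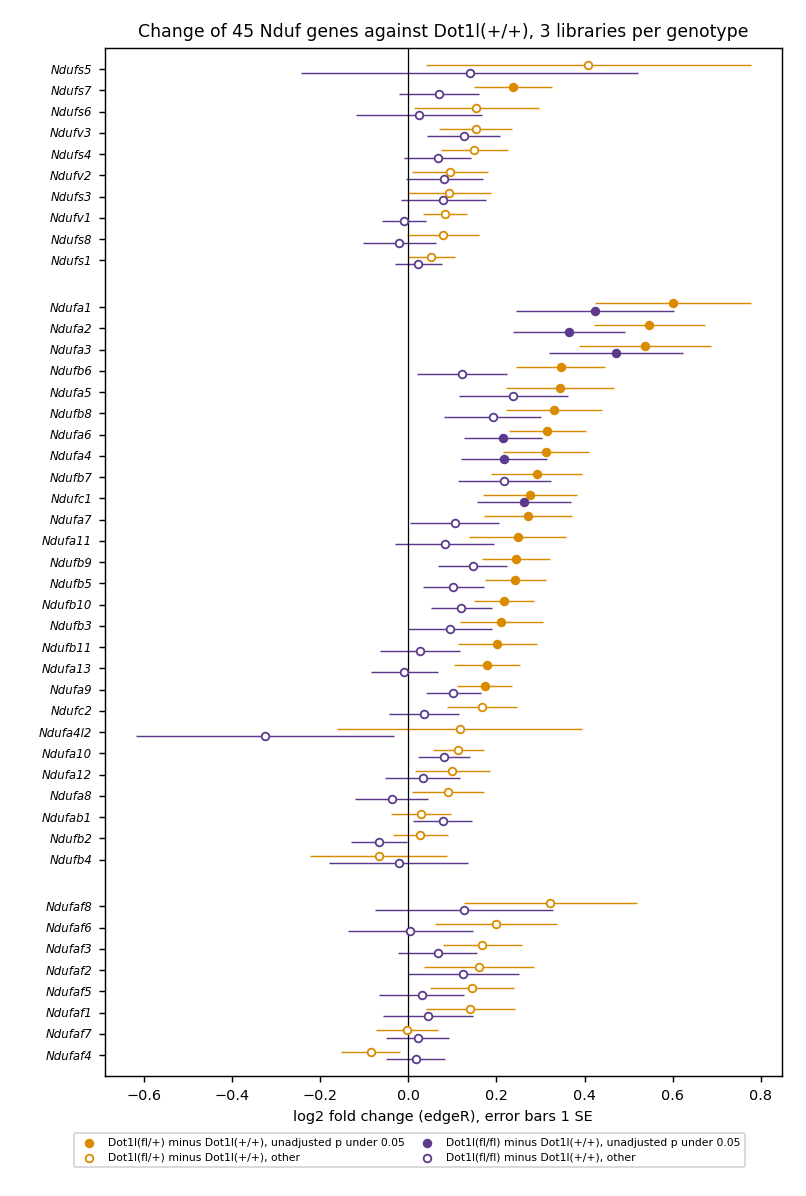
Log2 fold change of 45 of the 46 Nduf genes against the controls from edgeR, with 1 SE, for Dot1l(fl/+) (orange) and Dot1l(fl/fl) (purple), grouped as Ndufs and Ndufv (top), Ndufa, Ndufb and Ndufc (middle) and Ndufaf (bottom). Filled points have an unadjusted p under 0.05: 20 in Dot1l(fl/+) and 6 for Dot1l(fl/fl), of which none is an assembly factor.

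All 7 core subunit genes had a positive log2 fold change in Dot1l(fl/+), with a median of 0.09. At an unadjusted p under 0.05, 2 of them were higher, against 4.3% of all genes. Ndufs7, which holds the last iron-sulphur cluster before ubiquinone, stood at 44.5, 40.8 and 36.6 CPM in the controls, at 42.97, 49.3 and 51.3 in the Dot1l(fl/+) libraries and at 43.2, 45.8 and 38.6 in those of Dot1l(fl/fl). Its range in Dot1l(fl/+) overlapped that of the controls through replicate 1. The log2 fold change was 0.24 ± 0.09 (adjusted p = 0.541, edgeR) in Dot1l(fl/+) and 0.07 ± 0.09 for Dot1l(fl/fl).

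The core genes described next moved less than Ndufs7 in Dot1l(fl/+). Ndufs3, a matrix arm subunit, was the one core gene whose Dot1l(fl/+) libraries (20.8 to 21.1 CPM) all lay above the controls (18.9 to 20.1 CPM), with a log2 fold change of 0.09 ± 0.09 (adjusted p = 0.824, edgeR). Ndufs1, the largest subunit of the matrix arm and the most abundant of the 46 by CPM, differed from the controls by 0.05 ± 0.05 and 0.02 ± 0.05 in the 2 genotypes. For the NADH-oxidising pair, Ndufv1 had log2 fold changes of 0.08 ± 0.05 and -0.01 ± 0.05, and Ndufv2 of 0.10 ± 0.09 and 0.08 ± 0.09. Ndufs8, another iron-sulphur subunit, had 0.08 ± 0.08 and -0.02 ± 0.08. In Dot1l(fl/fl) the 7 core genes had a median of 0.07, 2 of them (Ndufv1 and Ndufs8) had values below 0, and none passed an unadjusted p of 0.05. The sign was not fixed for all of them: without control replicate 3, or with a correction for transcript length and GC content, Ndufs8 in Dot1l(fl/+) came to -0.021 and -0.017.

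The 4 supernumerary genes that carry Ndufs or Ndufv names were also above 0 in Dot1l(fl/+), and none passed an unadjusted p of 0.05. Ndufs4, a subunit whose loss causes Leigh-like disease, stood at 38.5, 38.6 and 34.4 CPM in the controls, at 38.7, 44.6 and 40.3 in the Dot1l(fl/+) libraries and at 37.5, 41.5 and 37.6 in those of Dot1l(fl/fl). All 3 Dot1l(fl/+) libraries lay above the controls, replicate 1 only narrowly, with a log2 fold change of 0.15 ± 0.08 (adjusted p = 0.617, edgeR) and 0.07 ± 0.08 in Dot1l(fl/fl). Ndufv3, which sits at the tip of the matrix arm, had 0.15 ± 0.08 and 0.13 ± 0.08, and its Dot1l(fl/+) libraries also lay above the controls. Ndufs6, a zinc-binding subunit of the matrix arm, had 0.15 ± 0.14 and 0.02 ± 0.14. Ndufs5 varied most: it stood at 2.27, 4.64 and 1.92 CPM in the controls, at 2.98, 3.18 and 5.53 in the Dot1l(fl/+) libraries and at 1.76, 4.71 and 3.21 in those of Dot1l(fl/fl), with counts between 44 and 145, and its fold changes had the largest standard errors of the 46 genes (0.37 and 0.38).

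The accessory genes named Ndufa, Ndufb and Ndufc held 19 of the 21 genes with an unadjusted p under 0.05 in Dot1l(fl/+) and all 6 for Dot1l(fl/fl). Their median log2 fold change was 0.24 in Dot1l(fl/+), with 26 of 27 above 0, and 0.10 for Dot1l(fl/fl), with 22 of 27 above 0. Ndufa2, a matrix arm subunit with a thioredoxin-like fold, stood at 14.3, 15.3 and 14.01 CPM in the controls, at 18.8, 20.99 and 23.9 in the Dot1l(fl/+) libraries and at 16.8, 22.6 and 16.6 in those of Dot1l(fl/fl). Every library of either floxed genotype lay above every control, with log2 fold changes of 0.55 ± 0.13 (adjusted p = 0.540, edgeR) and 0.36 ± 0.13. Ndufa1, a membrane arm subunit needed to build the enzyme, stood at 9.84, 10.2 and 9.62 CPM in the controls, at 12.3, 16.2 and 16.4 in the Dot1l(fl/+) libraries and at 10.5, 17.8 and 11.3 in those of Dot1l(fl/fl). Its floxed libraries also lay above the controls throughout, and in Dot1l(fl/fl) replicate 2 stood far above replicates 1 and 3. Ndufa1 had the largest fold change of the 46 in Dot1l(fl/+), 0.60 ± 0.18 (adjusted p = 0.541, edgeR), and 0.42 ± 0.18 for Dot1l(fl/fl).

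Ndufa3, a small subunit of the membrane arm, stood at 21.6, 26.5 and 23.8 CPM in the controls, at 28.99, 37.98 and 37.3 in the Dot1l(fl/+) libraries and at 33.03, 40.97 and 25.1 in those of Dot1l(fl/fl). Its Dot1l(fl/+) libraries lay above the controls, while replicate 3 of Dot1l(fl/fl) lay between them. The log2 fold changes were 0.54 ± 0.15 (adjusted p = 0.541, edgeR) and 0.47 ± 0.15, the latter the largest of the 46 in Dot1l(fl/fl). Ndufa6, which holds the mitochondrial acyl carrier protein on the matrix arm, stood at 25.2, 26.9 and 22.5 CPM in the controls, at 28.6, 32.4 and 31.7 in the Dot1l(fl/+) libraries and at 28.03, 31.3 and 26.99 in those of Dot1l(fl/fl). Both floxed genotypes lay above the controls, Dot1l(fl/fl) replicate 3 only narrowly, with log2 fold changes of 0.32 ± 0.09 (adjusted p = 0.541, edgeR) and 0.21 ± 0.09. The acyl carrier protein itself, Ndufab1, had 0.03 ± 0.07 and 0.08 ± 0.07.

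Ndufa4 stood at 95.4, 105 and 89.1 CPM in the controls, at 108, 138 and 114 in the Dot1l(fl/+) libraries and at 112, 125 and 99.05 in those of Dot1l(fl/fl). The Dot1l(fl/+) libraries lay above the controls and those of Dot1l(fl/fl) overlapped them, with log2 fold changes of 0.31 ± 0.10 (adjusted p = 0.541, edgeR) and 0.22 ± 0.10. Leaving Ndufa4 and Ndufa4l2 out, since they are not complex I subunits in current usage, left the median of the other 44 genes at 0.17 in Dot1l(fl/+). Ndufa4l2 stood at 2.13, 2.32 and 1.47 CPM in the controls, at 2.04, 2.05 and 2.29 in the Dot1l(fl/+) libraries and at 1.08, 2.37 and 1.15 in those of Dot1l(fl/fl), and replicates 1 and 3 of Dot1l(fl/fl) had the lowest values of the 9 libraries. With 19 to 60 counts per library its fold changes of 0.12 ± 0.28 and -0.33 ± 0.29 were not distinguishable from 0 at this depth. Ndufa5, a matrix arm subunit, had 0.34 ± 0.12 (adjusted p = 0.541, edgeR) and 0.24 ± 0.12, and Ndufa9, which binds NADPH near the ubiquinone site, had 0.17 ± 0.06 (adjusted p = 0.541) and 0.10 ± 0.06.

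Of the 10 Ndufb genes, which all encode membrane arm subunits, 8 were higher in Dot1l(fl/+) at an unadjusted p under 0.05, against 4.3% of all genes. None was higher for Dot1l(fl/fl), against 2.21%. With the offset for transcript length and GC content described below, 3 of the 8 still passed in Dot1l(fl/+) (Ndufb5, Ndufb6 and Ndufb8), and the median of the 10 went from 0.23 to 0.13. Ndufb5 stood at 67.4, 68.9 and 59.5 CPM in the controls, at 74.5, 82.7 and 74.5 in the Dot1l(fl/+) libraries and at 70.9, 73.1 and 65.9 in those of Dot1l(fl/fl). Its Dot1l(fl/+) libraries lay above all other libraries, with a log2 fold change of 0.24 ± 0.07 (adjusted p = 0.541, edgeR) against 0.10 ± 0.07 in Dot1l(fl/fl). Ndufb6 stood at 31.9, 32.5 and 26.2 CPM in the controls, at 35.5, 42.6 and 36.8 in the Dot1l(fl/+) libraries and at 29.5, 35.9 and 33.00 in those of Dot1l(fl/fl). Its Dot1l(fl/+) libraries lay above the controls, with 0.35 ± 0.10 (adjusted p = 0.541, edgeR), and those of Dot1l(fl/fl) overlapped them, with 0.12 ± 0.10. Ndufb7 to Ndufb10 had log2 fold changes between 0.22 (Ndufb10) and 0.33 (Ndufb8) in Dot1l(fl/+) and between 0.12 and 0.22 for Dot1l(fl/fl), and Ndufb3 and Ndufb11 had 0.21 and 0.20 in Dot1l(fl/+). Ndufb2 and Ndufb4 were the exceptions, with 0.03 ± 0.06 and -0.07 ± 0.16. Ndufb4 stood at 11.5, 9.66 and 11.8 CPM in the controls, at 9.36, 13.3 and 8.85 in the Dot1l(fl/+) libraries and at 12.5, 10.2 and 9.77 in those of Dot1l(fl/fl), with replicate 2 of Dot1l(fl/+) at its top and replicates 1 and 3 of the same genotype at its bottom.

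Ndufc1, a membrane arm subunit, differed from most others in that its fold changes in the 2 genotypes were nearly equal, 0.28 ± 0.11 (adjusted p = 0.541, edgeR) and 0.26 ± 0.11. It stood at 14.5, 13.4 and 12.6 CPM in the controls, at 14.3, 18.4 and 16.1 in the Dot1l(fl/+) libraries and at 15.9, 16.96 and 15.6 in those of Dot1l(fl/fl), so that all Dot1l(fl/fl) libraries lay above the controls while replicate 1 of Dot1l(fl/+) lay among them. Its neighbour in the enzyme, Ndufc2, had 0.17 ± 0.08 (adjusted p = 0.602, edgeR) and 0.04 ± 0.08. Among the remaining accessory genes Ndufa7, Ndufa11 and Ndufa13 were higher in Dot1l(fl/+) at an unadjusted p under 0.05, with log2 fold changes of 0.27, 0.25 and 0.18 and groups that overlapped in each. None of these 3 passed with the offset for length and GC content, at 0.12, 0.10 and 0.09. Ndufa8, Ndufa10 and Ndufa12 had 0.09, 0.11 and 0.10, and did not pass.

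The 8 assembly factor genes had a median log2 fold change of 0.15 in Dot1l(fl/+), with 6 above 0, and of 0.04 for Dot1l(fl/fl), with all 8 above 0. None passed an unadjusted p of 0.05 in either genotype, and in none did the 3 libraries of a floxed genotype all lie above the controls. Ndufaf3, which with Ndufaf4 helps to build the ubiquinone module, had the lowest p of the class in Dot1l(fl/+). It stood at 16.6, 17.8 and 16.4 CPM in the controls, at 17.2, 19.6 and 20.2 in the Dot1l(fl/+) libraries and at 17.4, 18.6 and 17.2 in those of Dot1l(fl/fl), with replicates 2 and 3 of Dot1l(fl/+) above every other library, and had log2 fold changes of 0.17 ± 0.09 (adjusted p = 0.632, edgeR) and 0.07 ± 0.09. Ndufaf4 lay in the other direction in Dot1l(fl/+), with -0.09 ± 0.07 and, for Dot1l(fl/fl), 0.02 ± 0.07. It came to 0.02 in Dot1l(fl/+) with the offset for length and GC content, where all 8 genes of the class were then above 0. Ndufaf8 had 0.32 ± 0.20 (adjusted p = 0.685, edgeR) and 0.13 ± 0.20, and its partner Ndufaf5 0.14 ± 0.09 and 0.03 ± 0.10. Ndufaf2, a relative of Ndufa12 that acts late in assembly, had 0.16 ± 0.12 and 0.12 ± 0.13, and Ndufaf1, which acts on the membrane arm, 0.14 ± 0.10 and 0.04 ± 0.10. Ndufaf6 and Ndufaf7, a protein arginine methyltransferase, had 0.20 ± 0.14 and -0.00 ± 0.07 in Dot1l(fl/+).

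By position in the enzyme, 7 of 16 matrix arm genes and 13 of 19 membrane arm genes were higher in Dot1l(fl/+) at an unadjusted p under 0.05. Their median log2 fold changes were 0.15 and 0.24, and 4.3% of all genes were higher at that threshold. In Dot1l(fl/fl) the counts were 2 and 3, against 2.21% of all genes, with medians of 0.08 and 0.10. The matrix arm includes all 7 core genes, and its 9 supernumerary genes had a median of 0.17 in Dot1l(fl/+), and 5 of them passed. The 29 supernumerary genes together had a median of 0.22, with 18 higher at an unadjusted p under 0.05, against 0.09 and 2 of 7 for the core. With the offset for transcript length and GC content, 5 of 16 matrix arm genes and 6 of 19 membrane arm genes passed in Dot1l(fl/+), both with a median of 0.12. With it 11 supernumerary genes passed with a median of 0.13, against none of the core with 0.08 and 4.15% of all genes. These differences between classes were not tested.

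The third comparison set Dot1l(fl/fl) against Dot1l(fl/+). Of the 46 genes, 42 had a log2 fold change below 0, with a median of -0.10, while that of all genes was 0.00. At an unadjusted p under 0.05, Ndufa13 and Ndufb6 were lower, against 2.87% of all genes, and none was higher, against 3.6%. The adjusted count in edgeR was 0 (0% of all genes), as it was in DESeq2 on all 9 libraries and on the 2 genotypes. Ndufa13, a membrane arm subunit also known as GRIM-19, stood at 56.6, 58.4 and 54.1 CPM in the controls, at 55.3, 67.7 and 68.4 in the Dot1l(fl/+) libraries and at 54.7, 56.5 and 56.9 in those of Dot1l(fl/fl). Its 2 high libraries were replicates 2 and 3 of Dot1l(fl/+), and the log2 fold change between the floxed genotypes was -0.19 ± 0.08 (adjusted p = 0.733, edgeR). For Ndufb6 it was -0.22 ± 0.10 (adjusted p = 0.762). With the offset for length and GC content neither passed an unadjusted p of 0.05, at -0.10 and -0.19, and Ndufb2 was the 1 lower gene, at -0.15, against 2.77% of all genes. With the replicate number as a block 4 members were lower, against 3.19%. In Ndufb5 and Ndufv1 the 3 Dot1l(fl/fl) libraries lay below the 3 of Dot1l(fl/+), against 5.14% of all genes, and in no gene did they lie above, against 5.98%. The genes with the largest fold changes against the controls did not pass an unadjusted p of 0.05 between the floxed genotypes, with -0.18 ± 0.17 for Ndufa1, -0.18 ± 0.12 for Ndufa2 and -0.07 ± 0.15 for Ndufa3.

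The libraries of a genotype were not alike. Averaged over the 46 genes, the log2 difference from the control mean was 0.01, 0.08 and -0.09 in the controls, 0.07, 0.29 and 0.24 in Dot1l(fl/+), and 0.03, 0.22 and 0.01 for Dot1l(fl/fl). Replicates 2 and 3 of Dot1l(fl/+) and replicate 2 of Dot1l(fl/fl) thus stood above the rest, and replicate 1 of Dot1l(fl/+) overlapped the controls. Within Dot1l(fl/+), replicate 1 was the lowest library in 41 of the 46 genes, and within Dot1l(fl/fl) replicate 2 was the highest in 35. Replicate 3 was the lowest control in 34 genes and replicate 2 the highest in 29. The assembly factors averaged -0.01, 0.24 and 0.16 in Dot1l(fl/+) and 0.01, 0.15 and 0.00 for Dot1l(fl/fl), and the core subunits 0.03, 0.20 and 0.12 and 0.05, 0.09 and -0.01, so the same libraries were high in each class.

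**Figure D3:**
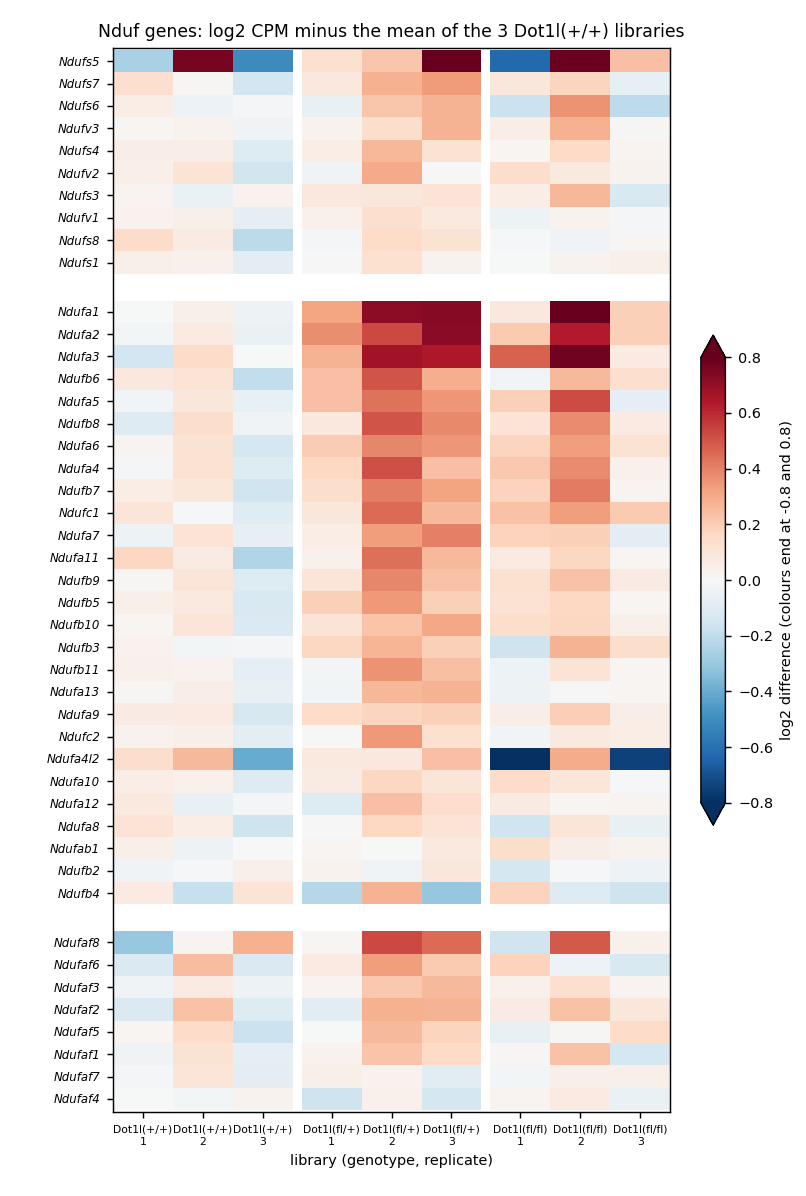
Log2 CPM of 45 of the 46 Nduf genes (rows, grouped by class and ordered by fold change in Dot1l(fl/+)) minus the mean of the 3 controls, in each of the 9 libraries (columns). Red is above and blue below the control mean. Replicates 2 and 3 of Dot1l(fl/+) and replicate 2 of Dot1l(fl/fl) are highest on average. Control replicate 2 and Dot1l(fl/+) replicate 1 are also above the control mean in 37 and 36 of the 46 genes.

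Single libraries therefore moved the counts. Without control replicate 3, the genes higher in Dot1l(fl/+) at an unadjusted p under 0.05 went from 21 to 12, while the share of all genes went from 4.3% to 3.05%. With other libraries left out the count was 14 to 28, and the share of all genes 2.90% to 6.28%. The count of 6 for Dot1l(fl/fl) went to 3 without control replicate 1 (1.6% of all genes), to 2 without control replicate 3 (2.23%), and to 0 without Dot1l(fl/fl) replicate 2 (1.05%), where 1 gene was then lower. The median over the 46 genes stayed between 0.14 and 0.25 in Dot1l(fl/+) and between 0.03 and 0.12 for Dot1l(fl/fl). With 1 library left out, the median of Ndufs and Ndufv was 0.09 to 0.19 in Dot1l(fl/+) and 0.01 to 0.11 for Dot1l(fl/fl). For Ndufa, Ndufb and Ndufc the ranges were 0.18 to 0.30 and 0.06 to 0.15, and for Ndufaf 0.10 to 0.23 and 0.02 to 0.11. In the comparison of the floxed genotypes, the count of 2 lower genes went to 12 without Dot1l(fl/fl) replicate 2 (3.08% of all genes), to 10 without Dot1l(fl/+) replicate 1 (4.32%), and to 0 without Dot1l(fl/+) replicate 2 or Dot1l(fl/fl) replicate 1, and it was 1 without control replicate 1 or replicate 3 of either floxed genotype.

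**Figure D4:**
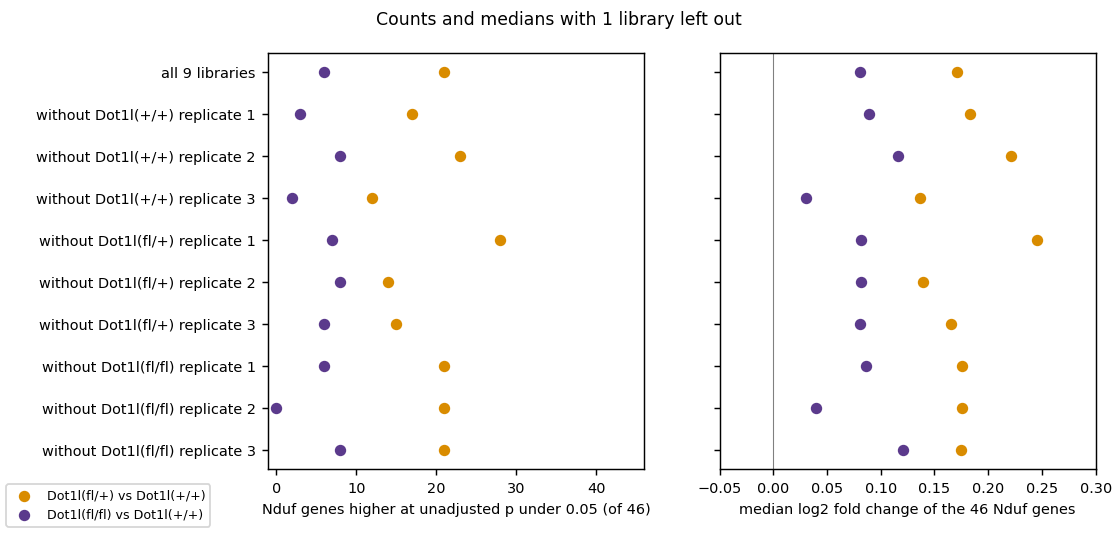
Number of Nduf genes higher at an unadjusted p under 0.05 (left) and their median log2 fold change (right) in the full fit and with each of the 9 libraries left out, for Dot1l(fl/+) (orange) and Dot1l(fl/fl) (purple) against the controls. The count for Dot1l(fl/fl) is 0 without its replicate 2, and both medians stay above 0.

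Most Nduf genes have short transcripts, and in these libraries short protein-coding genes tended to be higher in the floxed genotypes. The median length of the principal transcript was 977 bases over the 46 genes and 3215 over all 14734 protein-coding genes tested. It was 763 bases for Ndufa, Ndufb and Ndufc, 1322 for Ndufaf and 1623 for Ndufs and Ndufv. Of the 14 genes under 700 bases, 10 had an unadjusted p under 0.05 in Dot1l(fl/+), the median log2 fold change being 0.31, while the 202 other protein-coding genes of that length had a median of 0.18 and 27.7% of them were higher at that threshold. Between 700 and 1000 bases the medians were 0.21 for 10 Nduf genes and 0.13 for 471 others, between 1000 and 2000 bases 0.15 for 15 and 0.06 for 2728 others, and from 2000 bases on 0.03 for 7 and -0.02 for 11281 others. In Dot1l(fl/fl) the medians in the same order of bands were 0.17, 0.08, 0.07 and 0.02 for the Nduf genes and 0.12, 0.04, 0.02 and -0.01 for the others. The Nduf median was above that of the other genes in every band, and no test was made of the difference. Across the 46 genes the Spearman correlation of fold change and length was -0.741 in Dot1l(fl/+) and -0.542 for Dot1l(fl/fl), as a description of genes that share the same libraries.

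**Figure D5:**
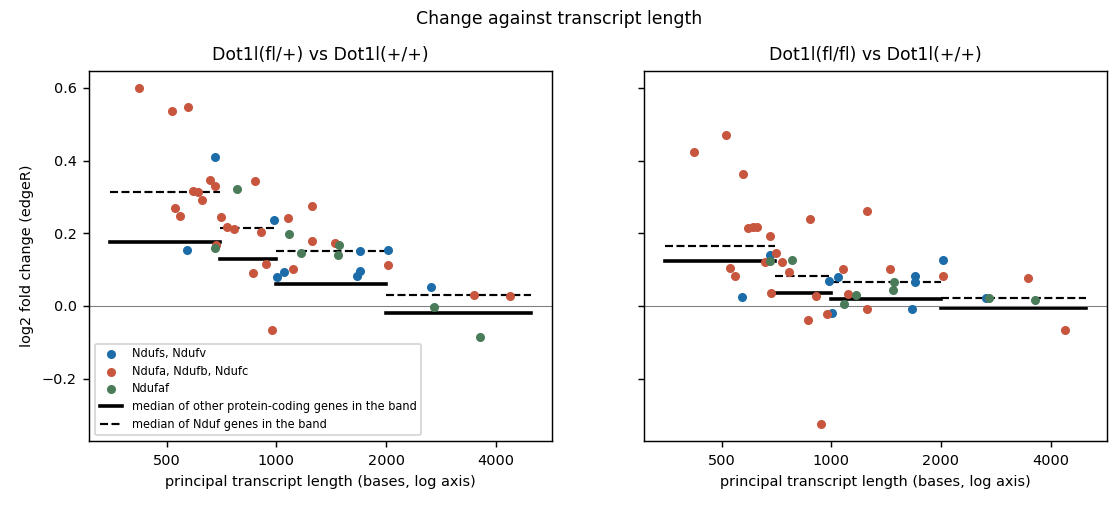
Log2 fold change of 45 of the 46 Nduf genes (points, coloured by class) against the length of the principal transcript on a log axis, for Dot1l(fl/+) (left) and Dot1l(fl/fl) (right) against the controls. Dashed lines are medians of the Nduf genes and solid lines medians of the other protein-coding genes in 4 length bands, with edges at 700, 1000 and 2000 bases, and both fall from short to long transcripts.

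The libraries differed in the same respect. The mean transcript length of protein-coding genes, weighted by CPM, was 4665 to 4713 bases in the controls, 4703, 4564 and 4619 in Dot1l(fl/+) and 4632, 4596 and 4682 for Dot1l(fl/fl). The 3 shortest values were those of the 3 libraries in which the Nduf genes stood highest. With an offset for transcript length and GC content in each library, 12 genes were higher in Dot1l(fl/+) and 3 for Dot1l(fl/fl) at an unadjusted p under 0.05, against 4.15% and 2.24% of all genes, and the medians were 0.11 and 0.05. Of the 21 genes higher in Dot1l(fl/+) without the offset, 11 passed with it and 10 did not, and Ndufs4, at 0.16, passed only with it. For Dot1l(fl/fl), Ndufa2, Ndufa3 and Ndufc1 passed with it and Ndufa1, Ndufa4 and Ndufa6 did not. The sign of the log2 fold change turned with the offset for Ndufa8, Ndufaf4, Ndufaf7 and Ndufs8 in Dot1l(fl/+), and for Ndufa12, Ndufaf5, Ndufaf6, Ndufb11, Ndufc2 and Ndufs6 in the other genotype. The class medians in Dot1l(fl/+) then lay closer together, at 0.11 for Ndufs and Ndufv, 0.12 for Ndufa, Ndufb and Ndufc, and 0.09 for Ndufaf. Of the genes named above, Ndufa1, Ndufa2 and Ndufa3 kept log2 fold changes of 0.46, 0.41 and 0.39 in Dot1l(fl/+) and an unadjusted p under 0.05, and Ndufs7 no longer passed, with 0.13.

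Some Nduf genes share stretches of sequence with transcripts of other genes. Of the 46 principal transcripts, 18 shared at least 1 window of 50 bases exactly with a transcript of another gene, and 8 shared over 10% of their windows. These were Ndufb4 (37.0%), Ndufs3 (35.8%), Ndufs5 (31.1%), Ndufa12 (26.2%), Ndufb9 (23.4%), Ndufs6 (14.6%), Ndufb8 (13.5%) and Ndufab1 (12.3%), and their levels are uncertain where the counting could split reads between genes. The other 28, among them Ndufa1, Ndufa2, Ndufa3, Ndufa4, Ndufa6, Ndufb5 and Ndufb6, shared none. The 4 pseudogenes with Nduf symbols were not counted as members. Ndufs6b stood at 6.10, 6.05 and 6.95 CPM in the controls, at 7.95, 10.8 and 9.69 in the Dot1l(fl/+) libraries and at 7.64, 10.8 and 7.52 in those of Dot1l(fl/fl), with log2 fold changes of 0.57 ± 0.16 (adjusted p = 0.541, edgeR) and 0.45 ± 0.16. Ndufa11b, with at most 35 counts, had 0.86 ± 0.27 and 0.86 ± 0.28, both at an unadjusted p under 0.05, Ndufab1-ps had 0.32 ± 0.18 and 0.21 ± 0.18, and Ndufb4c had too few counts to test.

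The subunits made from mitochondrial DNA are the partners of the nuclear core. Of 7, mt-Nd3 and mt-Nd4l had at most 1 count in a library and were not tested. The other 5 had a median log2 fold change of -0.10 in Dot1l(fl/+), with 4 below 0, and of 0.09 for Dot1l(fl/fl), with all 5 above 0, and none passed an unadjusted p of 0.05 against the controls. In Dot1l(fl/fl) against Dot1l(fl/+), mt-Nd2, mt-Nd4 and mt-Nd5 were higher at an unadjusted p under 0.05, with log2 fold changes of 0.19 ± 0.08, 0.21 ± 0.10 and 0.25 ± 0.08 (adjusted p = 0.758, 0.768 and 0.712, edgeR). Of all genes tested, 3.6% were higher at that threshold. mt-Nd5 stood at 3948, 4736 and 4680.0 CPM in the controls, at 4120.0, 4300.0 and 3714 in the Dot1l(fl/+) libraries and at 5237, 4587 and 4562 in those of Dot1l(fl/fl). mt-Nd1 and mt-Nd6 had 0.13 ± 0.10 and 0.04 ± 0.16 in that comparison. With the offset for length and GC content mt-Nd5 still passed an unadjusted p of 0.05, at 0.17, while mt-Nd2 and mt-Nd4 did not, at 0.13 and 0.15.

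Of 12 assembly factors with other names, 6 had log2 fold changes above 0 and 6 below 0 in each floxed genotype, with medians of 0.00 and -0.00. Lyrm2, a small matrix protein, was higher in Dot1l(fl/fl) at 0.29 ± 0.11 (adjusted p = 0.999, edgeR) and had 0.22 ± 0.11 in Dot1l(fl/+). It passed an unadjusted p of 0.05 in Dot1l(fl/fl), where 2.21% of all genes were higher, and no other member of that list passed. The partners of Ndufaf1 in the assembly complex of the membrane arm did not pass an unadjusted p of 0.05 in Dot1l(fl/+), with log2 fold changes of 0.05 for Acad9, -0.03 for Ecsit, 0.02 for Tmem126b, 0.05 for Timmdc1 and -0.11 for Tmem186. Of 10 regulators of nuclear respiratory genes, none was higher in Dot1l(fl/+) at an unadjusted p under 0.05 (4.3% of all genes), and 2 were lower (4.09%). These 2 were Ppargc1a, a coactivator of mitochondrial biogenesis, at -0.15 ± 0.06 (adjusted p = 0.541, edgeR), and Gabpb2, a subunit of the GABP factor, at -0.20 ± 0.09 (adjusted p = 0.568). Neither passed in Dot1l(fl/fl), with -0.03 and -0.06. Between the floxed genotypes, Gabpb1 was higher in Dot1l(fl/fl) at 0.18 ± 0.08 (adjusted p = 0.762, edgeR) and Esrra, an orphan nuclear receptor, had -0.18 ± 0.08 (adjusted p = 0.762). Both passed an unadjusted p of 0.05, against 3.6% of all genes higher and 2.87% lower. Nrf1, the factor whose motif was searched above, had -0.14 ± 0.10 in Dot1l(fl/+) and -0.03 ± 0.10 for Dot1l(fl/fl). With the offset for length and GC content none of the calls on Lyrm2, Ppargc1a, Gabpb2, Gabpb1 and Esrra passed an unadjusted p of 0.05, and Ppargc1a came to -0.06 in Dot1l(fl/+).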

How the data were processed

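RNA from dissected midbrain of 9 pools of 3 mice (3 per genotype) was sequenced, and the authors deposited raw counts per Ensembl gene from directional libraries (a kit that keeps strand). The submitters' processing notes name bcl2fastq 2.17, Trimmomatic 0.30, DESeq2 1.10.1 and the build GRCm38.p4. Which aligner, counter and annotation were used is not given in the sources used here. The 3 deposited tables of the authors' own comparisons (DESeq2 fold changes and p-values) were not used.

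Counts were read with Python 3.11.15, pandas 2.3.3 and numpy 2.4.6, and figures drawn with matplotlib 3.10.9. Identifiers were matched to GENCODE M21 (47310 of 47729, with 99.9% of counts). Chi-square per degree of freedom between replicates was 4.47 to 16.5, so no library was a copy of another. In R 4.3.3, edgeR 4.0.16 (with limma 3.58.1) was run with filterByExpr, TMM and the quasi-likelihood test on all 9 libraries together (factor: genotype) and Benjamini-Hochberg adjustment over 17671 genes. The common biological coefficient of variation was 8.81%. Alternatives were DESeq2 1.42.0, fits of 2 genotypes, other scalings, no filter, the replicate number as a block, an offset for transcript length and GC (splines with 4 degrees of freedom), and each library left out. Steps were tested on simulated data.

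The genes named are, in each floxed genotype, the 12 with the lowest p, the 3 with the lowest p in each class, the 7 core genes, the extremes of level in each class, Dot1l, the mtDNA-encoded subunits and genes of the other lists with an unadjusted p under 0.05. Others were named after their values were seen. The members and lists were chosen with earlier results of these data known. For 1 member, included in the counts and medians, no values are reported here.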

Additional observations from a re-analysis of the deposited data

How the results depend on the processing

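The direction of the median over all 46 genes in the 3 comparisons, and of the medians of the 3 classes by name against the controls, was the same under every alternative run. Other groupings were recomputed with the length and GC offset only. Counts at an unadjusted p under 0.05 moved. The offset for length and GC content gave 12 higher genes in Dot1l(fl/+), 11 of them among the 21 without it and 1 new (Ndufs4), and 3 for Dot1l(fl/fl), all among the 6 without it. Between the floxed genotypes it gave 1 lower gene, Ndufb2, and lost both calls made without it. It took the median of Ndufa, Ndufb and Ndufc in Dot1l(fl/+) from 0.24 to 0.12 (0.12 with the replicate block as well). Without the filter on low counts, adjusted calls went from 0 to 11 in Dot1l(fl/+) (251 of 28316 over all genes) and to 1 for Dot1l(fl/fl) (118 of 28316), 10 genes were higher in the latter (2.32% of all genes) and 6 lower between the floxed genotypes (3.23%), and the cause was not tested. DESeq2 on the 2 genotypes made 3 adjusted calls in Dot1l(fl/+) (45 of 27474).

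The methods of the study describe pools matched across the genotypes by litter, and no label says that the replicate number marks such a match. Deviations of samples with equal numbers correlated positively in all 9 pairs, but not above 0.1 in each (0.022 for control and Dot1l(fl/fl) replicate 3), so the number was left out of the model and blocked counts stand beside the results where they moved by over 1.5 times. With the replicate number as a block, the higher genes were 24 in Dot1l(fl/+) (4.77% of all genes) and 10 for Dot1l(fl/fl), and the lower genes between the floxed genotypes were 4. As a hint from the data, each Dot1l(fl/+) sample correlated best with the control of its own number. Each Dot1l(fl/fl) sample likewise correlated best with the Dot1l(fl/+) sample of its own number. The reverse did not hold throughout, since Dot1l(fl/+) replicate 3 correlated more with Dot1l(fl/fl) replicate 2 (0.108) than with its replicate 3 (0.080).

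With 1 library left out, where a genotype then has 2 libraries in a fit of all genotypes, the higher genes ranged from 12 to 28 in Dot1l(fl/+), 0 to 8 for Dot1l(fl/fl) and 0 to 1 between the floxed genotypes, and the lower genes from 0 to 1, 0 to 1 and 0 to 12. The log2 fold change ranged across 0 in 6 of the 46 genes in Dot1l(fl/+) and in 20 for Dot1l(fl/fl). Among the 23 genes examined in each comparison these were Ndufv2 (-0.020 to 0.16) and Ndufs8 (-0.021 to 0.16) in Dot1l(fl/+), and Ndufaf8 (-0.091 to 0.28), Ndufv1 (-0.050 to 0.017), Ndufs1 (-0.020 to 0.047), Ndufs3 (-0.026 to 0.17), Ndufs7 (-0.0016 to 0.14) and Ndufs8 (-0.12 to 0.058) in Dot1l(fl/fl). Ndufs8 in Dot1l(fl/+) also came to -0.017 with the length and GC offset and to -0.014 with the block added. Over those 23 in Dot1l(fl/+), 385 of 414 values kept their sign and their side of the threshold, 14 no longer passed, 11 passed anew and 4 changed sign. For Dot1l(fl/fl) the counts were 358 of 414, 20, 26 and 10. No member carries a symbol that marks a copy, so leaving out such copies gave no value. Genes with few counts, such as Ndufa4l2, Ndufs5 and Ndufaf8, carry the widest errors.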
